A study of Mus musculus with 3 samples.

Results

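The genes of the mitochondrial ribosomal proteins were described in RNA-seq of total RNA from F121-9, a mouse embryonic stem (ES) cell line that is a hybrid of the Cast and 129 strains. Its 3 libraries are labelled biological replicates 1, 2 and 3, all made at passage 14 from 400 ng of RNA with spike-ins. They form 1 group with no treatment or genotype compared, so p-values measure only how far these libraries spread, and that spread may be technical. A gene was taken when its symbol was Mrpl or Mrps followed by a number, with or without a letter, and it had a transcript typed as protein-coding. This gave 78 of 55536 genes, 49 with an Mrpl and 29 with an Mrps symbol.

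Mitochondria keep a genome of their own, and the mitochondrial ribosome translates its messenger RNAs, which encode core subunits of the respiratory chain and the ATP synthase. The ribosomal RNAs come from the mitochondrial genome, while the ribosomal proteins are encoded in the nucleus, made in the cytosol and imported. Some proteins have counterparts in the bacterial ribosome, and others were added in the mitochondrial lineage. By structure, 51 of the 78 genes encode proteins of the large subunit, 30 of them with a bacterial counterpart. Another 26 encode proteins of the small subunit, 16 with a bacterial counterpart. Mrps30 and Mrps18a carry small-subunit symbols but encode large-subunit proteins. Mrps36 encodes a protein now assigned to the alpha-ketoglutarate dehydrogenase complex and was placed in no subunit.

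The RSEM-style gene tables, named for the columns they hold, held 9765384 to 10610782 estimated counts per library, of which 58547 to 60411 belonged to the 78 genes. Levels are TPM (transcript abundance per library, corrected for transcript length and scaled to a fixed total) from these tables, as mean ± SD of n = 3 libraries unless stated. The 10 ES cell markers looked up stood at 90.8 to 26198 TPM (Fgf4 lowest, Dppa5a highest, then Nanog at 505 TPM). Of 10 feeder fibroblast markers only Pdgfrb (1.53 TPM, then Thy1 at 1.06 TPM) reached 1 TPM in all 3 libraries, 5 had no count in any, and their summed level was 3.37 to 4.40 TPM per library. Of 12 germ layer markers 4 reached 1 TPM in all libraries (Tubb3 highest at 10.6 TPM, then T at 4.86 TPM), 3 had no count, and the 12 summed to 17.9 to 23.3 TPM.

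All 78 genes were expressed, that is, at 1 TPM or more in every library, where 52.1% of the 22028 protein-coding genes were. Their means ran from 32.3 TPM for Mrpl9 to 555 TPM for Mrpl42, a 17.2-fold range, with a median of 102 TPM and quartiles of 66.7 and 160 TPM. All 78 lay above the median of the 11478 expressed protein-coding genes, which was 19.7 TPM. Mrpl9, the lowest, stood at the 63.1 percentile of those genes. Together the 78 genes held 0.968%, 1.003% and 0.997% of all TPM in replicates 1, 2 and 3 (0.990% ± 0.019). The 10 highest held 31.2% of that sum. In bulk RNA, fewer cells that express a gene and less RNA per cell cannot be told apart. The genes lie on 17 chromosomes, 11 of them on chromosome 11, 8 on chromosome 17 and 0 on the sex chromosomes.

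**Figure D1:**
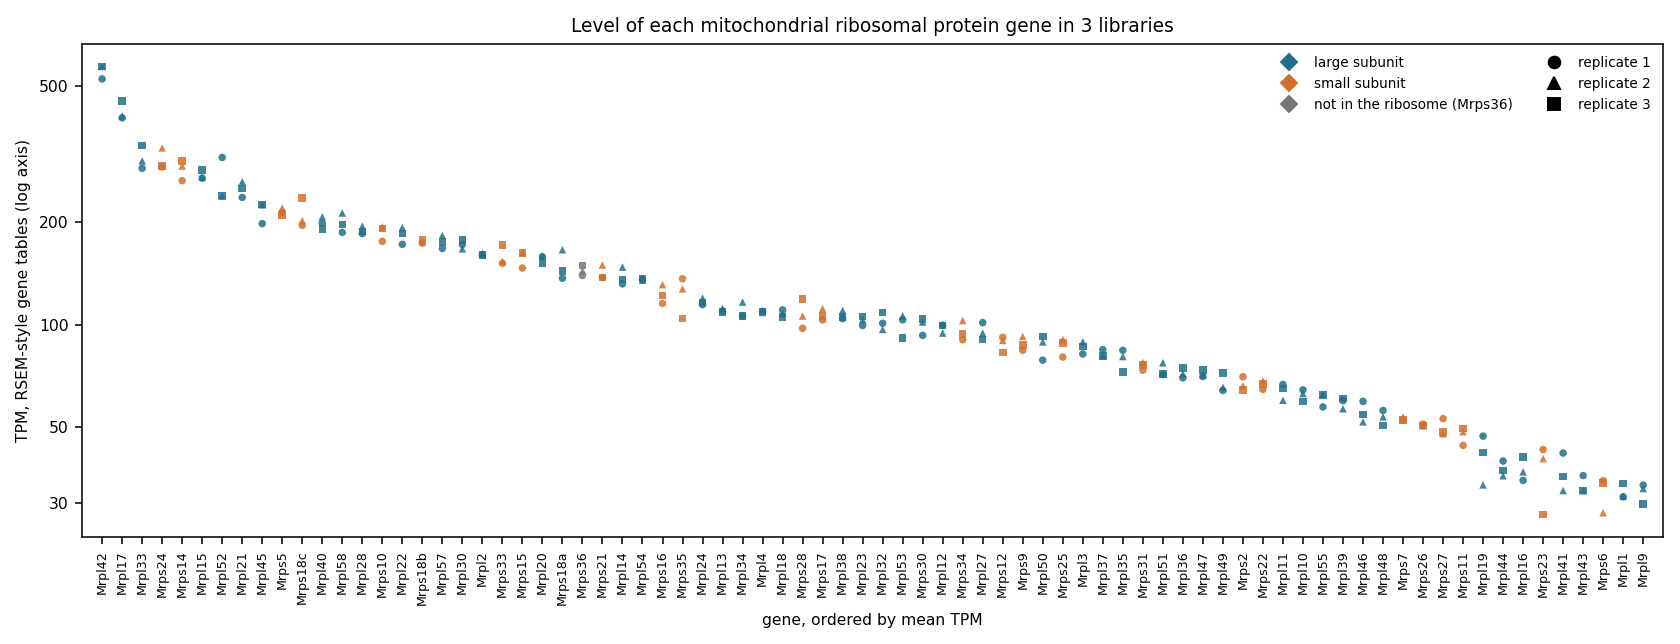
TPM of each of the 78 genes (horizontal axis, ordered by mean) in the RSEM-style gene tables on a log axis, with 1 point per library. Mrpl42 and Mrpl17 stand above the rest, the order hardly changes between libraries, and Mrps23, Mrpl19 and Mrpl52 show the widest spread.

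Among large-subunit proteins found only in mitochondria, Mrpl42 (ENSMUSG00000062981.5, chromosome 10, 95480805 to 95501940, minus strand, mm10) was the most abundant of the 78. It measured 524, 570 and 571 TPM in replicates 1, 2 and 3. The next in this class were Mrpl52 at 309, 238 and 239 TPM and Mrpl45, which lies near the exit of the nascent chain and helps hold the ribosome at the inner membrane, at 198, 224 and 225 TPM. Mrpl42 was lowest and Mrpl52 highest in replicate 1. Mrpl58, which keeps a peptide-release activity, stood at 198 ± 13.1 TPM. The lowest of the class were Mrpl43 (33.8 ± 2.01 TPM) and Mrpl41 (36.9 ± 4.77 TPM). Mrps30 and Mrps18a, the large-subunit proteins with Mrps symbols, stood at 99.5 ± 5.76 and 149 ± 15.2 TPM.

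Among large-subunit proteins with a bacterial counterpart, Mrpl17 (ENSMUSG00000030879.10, chromosome 7, 105803206 to 105811099, minus strand) measured 403, 408 and 452 TPM. Mrpl33 followed at 287, 302 and 334 TPM and Mrpl15 at 269, 270 and 283 TPM. Each of the 3 was lowest in replicate 1 and highest in replicate 3. Mrpl21 stood at 249 ± 13.2 TPM. Mrpl12, the stalk protein that contacts translation factors, stood near the middle of the family at 99.6, 94.5 and 99.5 TPM. Mrpl9 (32.3 ± 2.17 TPM) and Mrpl1 (32.3 ± 1.66 TPM) were the lowest of all 78, and their ranges overlapped.

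Among small-subunit proteins with a bacterial counterpart, Mrps24 measured 290, 329 and 291 TPM, Mrps14 264, 291 and 301 TPM, and Mrps5 213, 219 and 209 TPM. Mrps24 and Mrps14 overlapped, and both lay above Mrps5 in every library. Mrps12, the decoding-site protein whose bacterial counterpart carries streptomycin resistance mutations, stood at 91.8, 89.9 and 82.8 TPM. Mrps6 was the lowest at 32.5 ± 3.78 TPM and, with 157 counts per library on average, also the gene with the fewest counts. Among small-subunit proteins found only in mitochondria, the highest were Mrps18b (175 ± 2.24 TPM), Mrps33 (159 ± 11.0 TPM) and Mrps35 (123 ± 16.5 TPM), and the lowest was Mrps23 (37.1 ± 8.20 TPM). Mrps36 stood at 144 ± 4.90 TPM.

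The Mrps18 genes encode related proteins that take different places in the ribosome. Mrps18c encodes the protein that is counted as the bacterial counterpart, Mrps18b another small-subunit protein and Mrps18a a large-subunit protein. Mrps18c measured 195, 202 and 235 TPM, Mrps18b 173, 175 and 178 TPM, and Mrps18a 137, 166 and 143 TPM. The order c, b, a held in each library, and the 3 ranges did not overlap.

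The subunits stood at nearly the same level. In log2(TPM + 1), the median of the 49 Mrpl genes minus that of the 29 Mrps genes was 0.011 ± 0.045, which is less than its spread over libraries. The sign turned without replicate 1 (-0.010), with CPM (counts scaled to library size, without length correction; -0.017) and in the kallisto-style tables (-0.10). The median levels were 103 ± 2.02 TPM for Mrpl and 103 ± 4.44 TPM for Mrps. By origin, the 46 genes with a bacterial counterpart had a median of 107 ± 1.84 TPM and the 31 found only in mitochondria 88.8 ± 3.75 TPM. The medians by class were 105 ± 1.15 TPM (large, bacterial), 95.7 ± 5.26 TPM (large, mitochondrial), 117 ± 6.60 TPM (small, bacterial) and 81.0 ± 3.64 TPM (small, mitochondrial). These medians are a description, and no test was made between classes.

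**Figure D2:**
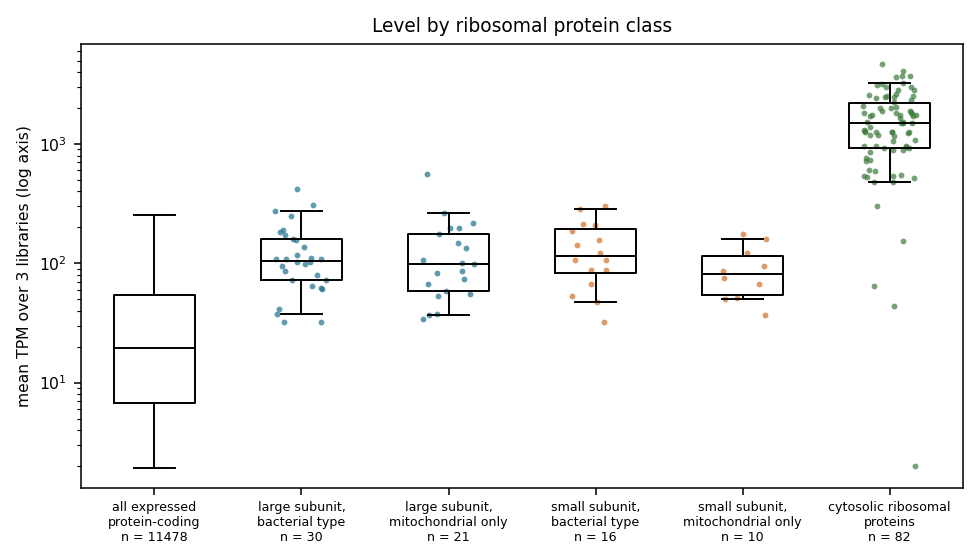
Mean TPM over 3 libraries on a log axis for 4 classes of mitochondrial ribosomal proteins, the cytosolic ribosomal proteins and all expressed protein-coding genes. Points are genes, boxes the quartiles with the median, and whiskers the 5th and 95th percentiles. The mitochondrial classes have medians of 81.0 to 117 TPM, between that of all expressed coding genes (19.7 TPM) and that of the cytosolic genes (1490 TPM).

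The 82 cytosolic ribosomal protein genes were the family most alike. Their median was 1490 ± 19.4 TPM and they held 13.3% ± 0.0761 of all TPM, with Rpl41 (4676 ± 92.3 TPM) highest and Rpl3l (2.00 ± 0.765 TPM) lowest. The cytosolic median exceeded the mitochondrial one by 3.83 ± 0.019 in log2(TPM + 1). By CPM, where length is not taken out, the difference was 2.72 ± 0.030. The mean length over the transcripts of a gene had a median of 649 nt in the cytosolic and 1019 nt in the mitochondrial family. The spread between genes, as the SD of log2(TPM + 1), was 0.92 ± 0.032 in the mitochondrial and 1.52 in the cytosolic family. The cytosolic value takes in Rpl3l, Rpl39l (44.1 ± 2.95 TPM) and Rpl10l (64.4 ± 3.79 TPM), below all others, with Rpl29 next at 155 ± 2.65 TPM. Genes so far below the median widen the spread, and the value without them was not computed. Within the mitochondrial family TPM was lower in longer genes (Spearman's rho -0.553 over 78 genes). Length enters TPM itself, and by counts rho was 0.327. By counts the first gene was Mrpl45 (3597 per library), then Mrps30 (2330).

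Genes that act with the mitochondrial ribosome were looked up by list. All 5 of its proteins with other symbols were expressed (median 127 ± 4.70 TPM), from Chchd1 (281 ± 16.5 TPM) and Aurkaip1 (274 ± 17.4 TPM) down to Gadd45gip1 (52.4 ± 0.413 TPM). All 23 assembly factors were expressed at a lower median (26.4 ± 4.10 TPM), the helicase gene Dhx30 (125 ± 8.83 TPM) and Mpv17l2 (96.2 ± 1.51 TPM) highest and Ybey (2.66 ± 0.0451 TPM) lowest. All 16 translation factors and partners were expressed (median 26.1 ± 1.81 TPM), from the RNA-stabilising Slirp (363 ± 27.4 TPM) and the elongation factor Tsfm (125 ± 2.67 TPM) to the release factor Mtrf1l (4.36 ± 1.25 TPM). All 20 genes of mitochondrial tRNA synthetases and the amidotransferase were expressed (median 25.8 ± 1.03 TPM), Lars2 highest and Mars2 (2.63 ± 0.196 TPM) lowest. Lars2 measured 230, 556 and 512 TPM, lowest in replicate 1, while the kallisto-style tables put it at 971 ± 384 TPM. Rars2 came next at 85.6 ± 5.22 TPM. Of 16 genes of mitochondrial transcription and its regulators 15 were expressed. Mycn (100.3 ± 1.21 TPM) and Nrf1 (96.5 ± 2.06 TPM) were highest, and Ppargc1a, a coactivator of mitochondrial genes in muscle and brown fat, had 1 count in all 3 libraries together.

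Of the 13 protein-coding genes of the mitochondrial genome, 6 stood above Mrpl42, the highest of the 78 genes. In front were mt-Atp8 (8091 ± 325 TPM) and mt-Atp6 (6767 ± 167 TPM). Another 6 lay within the range of the 78, from mt-Nd4 (533 ± 18.8 TPM) down to mt-Nd5 (78.9 ± 5.49 TPM), which was below the family's median. These places hold for the RSEM-style tables only. Within that range mt-Co3 measured 145, 472 and 595 TPM, but the kallisto-style tables put it at 2190 ± 286 TPM. mt-Nd3 stood at 155 ± 59.0 TPM in the RSEM-style and 40.8 ± 5.67 TPM in the kallisto-style tables. mt-Nd4l was listed at 0 in the RSEM-style tables, whereas the kallisto-style tables put it at 535 ± 38.9 TPM. The mitochondrial ribosomal RNA genes mt-Rnr1 and mt-Rnr2 stood at 86.3 ± 20.9 and 112 ± 9.04 TPM. It is not given in the sources used here if ribosomal RNA was removed before sequencing.

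The next question was whether any of the genes varied between the libraries. By edgeR's quasi-likelihood fit, which sets a gene's spread against that of genes of like count, 0 of 78 passed an adjusted p under 0.05, beside 0.0373% of the 13391 genes tested. At an unadjusted p under 0.05 there were 3 (Mrpl45, Mrpl50 and Mrps18a), or 3.85% against 4.56% of all genes. limma-voom also called 0 of 78, beside 0.0597% of all genes. It had 3 at an unadjusted p under 0.05, a level at which the share of all genes was not computed. In the lists above 2 genes passed the edgeR test, Lars2 (adjusted p = 0.00047) and mt-Co3 (adjusted p = 0.00011). The median coefficient of variation (CV) of TPM was 5.28% over the 78 genes and 5.00% over the 4010 expressed protein-coding genes within the same TPM range.

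The widest spread in TPM came with steady counts. Mrps23 measured 43.1, 40.5 and 27.8 TPM (CV 22.1%), lowest in replicate 3. Its CPM were 22.0, 22.4 and 22.1 (CV 0.934%), while the mean transcript length in the tables was 904, 923 and 1249 nt. Mrpl52 (CV 15.5% in TPM) had CPM of 40.9, 40.2 and 40.3 with lengths of 369, 421 and 423 nt. Mrpl19 measured 47.2, 33.9 and 42.2 TPM (CV 16.3%), with CPM of 70.8, 74.8 and 70.0 and lengths of 2259, 3074 and 2381 nt. In each of the 3 genes the library with the extreme TPM was the one with the extreme length, in the opposite direction, and the CV of CPM was at most 3.62%. Smallest were the spreads of Mrpl4 (CV 0.402%), Mrpl54 (0.543%) and Mrps26 (0.596%).

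A chi-square test against counting noise, which asks less than the fit above, called 13 of 78 genes (16.7%) at an adjusted p under 0.05, beside 12.4% of all genes tested. They were Mrpl42, Mrps24, Mrps14, Mrpl21, Mrpl45, Mrpl58, Mrps10, Mrps15, Mrps18a, Mrps28, Mrpl38, Mrps30 and Mrpl50. All 13 were lowest in replicate 1. Mrpl45 had the smallest adjusted p (7.1e-14 by chi-square), with 321, 384 and 381 CPM. Mrps30 measured 212, 244 and 247 CPM and Mrpl50 110, 131 and 134 CPM. For these 3 genes replicate 1 stood apart and replicates 2 and 3 lay together. Without replicate 1 the test called 0 of 78 genes, beside 0.2% of all genes. At an unadjusted p under 0.05 there were 4, and the share of all genes at that level was not computed. Without replicate 2 it called 10 (10.8% of all genes) and without replicate 3 it called 13 (10.9% of all genes). With the kallisto-style counts it called 21, beside 17.6% of all genes.

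Replicate 1 was lower for most of the family. The CPM in replicate 1 was below the mean of replicates 2 and 3 for 62 of 78 genes, beside 50.8% of all genes tested, and 57 of 78 had their lowest CPM there, beside 38.6%. The median log2 ratio of replicate 1 to the other replicates was -0.098 over the 78 genes (range -0.27 for Mrpl50 to 0.24 for Mrpl41) and -0.0030 over all genes. The ratio was lower in shorter genes (Spearman's rho 0.299 over 13391 genes of the same libraries). In 4 bins of nearly equal number, from the shortest to the longest by mean transcript length, its median was -0.075, -0.035, 0.012 and 0.079. Of the 78 genes 63 fell in the shortest bin, with a median of -0.094, 11 in the next (-0.12) and 4 in the third (-0.18). The 1798 genes of mean transcript length between 768 and 1344 nt, the quartiles of the family, had a median of -0.082, and the 930 of them at 20 CPM or more had -0.094. The family's median length was 1019 nt and that of all genes tested 2427 nt. The cytosolic ribosomal protein genes had a median of -0.051. When libraries were scaled by the ERCC spike-ins, the sign turned: the family stood at 0.087 and all genes at 0.18. Such scaling moves every gene by the same amount and leaves the gap between them as it was. On the deposited TPM scale the medians were -0.048 and 0.061. The part of length or RNA quality in the result was not tested further.

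**Figure D3:**
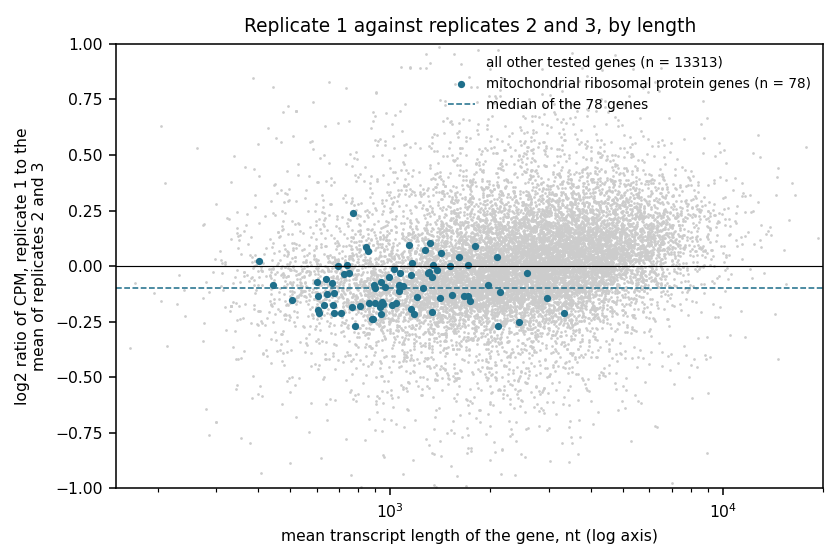
log2 ratio of CPM in replicate 1 to the mean of replicates 2 and 3 (vertical axis) against the mean transcript length of a gene (log axis) for the 78 genes and the other genes tested. The dashed line is the family's median (-0.098), and 42 points lie outside the axes. Most of the 78 lie below 0, as do many other genes of their length.

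Both quantifications were then set side by side. In the kallisto-style tables the transcript values of a gene were summed. Both ranked the 78 genes alike (Spearman's rho 0.976 over 78 genes of the same libraries), and 72 of 78 were lower in the kallisto-style tables. The median difference was -0.30 in log2(TPM + 1), beside -0.25 over the 14743 genes tested. With limma, an adjusted p under 0.05 and a difference of at least 1, only Mrpl23 differed, 1 of 78 (1.28%) beside 13.1% of all genes (2.4% lower and 10.7% higher). With differences centred on the median of all genes Mrpl23 stood at -0.96 ± 0.073 (SE, limma adjusted p = 0.0039), short of the minimum difference, and 0 of 78 were called (13.5% of all genes). Without the minimum difference 62 were lower and 1, Mrpl43, was higher, which is 80.8% beside 78.1% of all genes. Mrpl43, listed at 33.8 ± 2.01 TPM in the RSEM-style tables, stood at 41.8 ± 4.45 TPM in the kallisto-style ones.

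**Figure D4:**
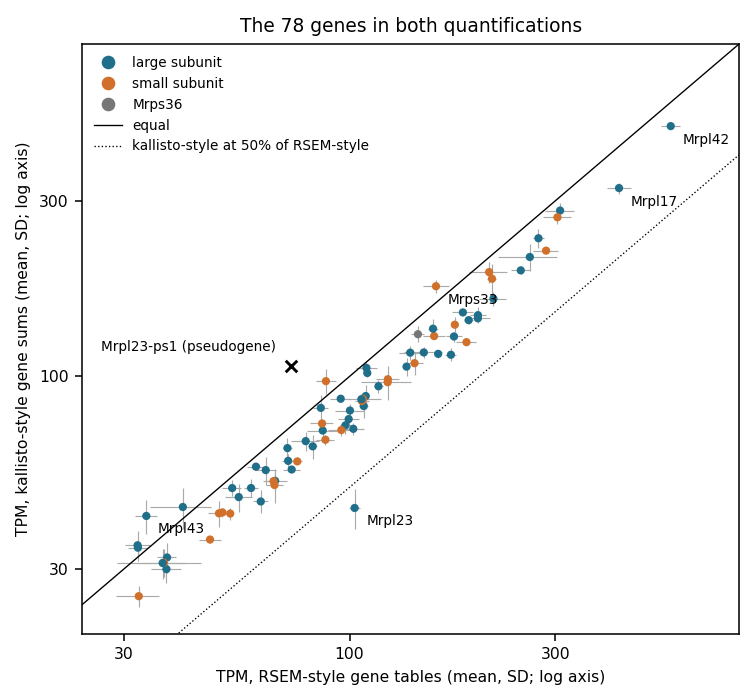
Mean and SD over 3 libraries of the 78 genes in the RSEM-style gene tables (horizontal) and the kallisto-style gene sums (vertical), both in TPM on log axes. Mrpl23 (103 and 43.9 TPM) lies below the dotted line at 50%, and its pseudogene Mrpl23-ps1 (cross, 73.4 and 107 TPM) lies on the other side of the line of equal values.

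Mrpl23 (ENSMUSG00000037772.13, chromosome 7, 142532686 to 142540747, plus strand) measured 99.4, 103 and 106 TPM in the RSEM-style and 50.2, 40.1 and 41.5 TPM in the kallisto-style tables. The groups did not overlap, and the difference was -1.21 ± 0.092 (SE, limma adjusted p = 0.00068). The processed pseudogene Mrpl23-ps1 (chromosome 2, 74591330 to 74591909, minus strand) moved the other way, from 68.6, 79.4 and 72.2 to 105, 112 and 103 TPM. The coding sequence of Mrpl23, 438 bases, occurs in the pseudogene in full with 0 mismatches, so reads from it cannot be told apart. The sum of both was 176 ± 7.48 TPM in the RSEM-style and 150 ± 5.35 TPM in the kallisto-style tables. Mrpl23 took 58.4% ± 1.58 of that sum in the former and 29.2% ± 3.05 in the latter. The split between gene and pseudogene is uncertain. Part of the fall of Mrpl23 lay in its transcript Mrpl23-207, whose values are given below. The transcript with the whole coding sequence, Mrpl23-201, held 62.5% ± 4.11 of the gene in the RSEM-style tables. In the kallisto-style tables it held 96.2% ± 0.155. Where the reads of either transcript went was not tested. The first 150 coding bases, shown because both loci hold them letter for letter, are from the GENCODE M21 transcripts:

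Mrpl23 and Mrpl23-ps1, coding bases 1 to 150: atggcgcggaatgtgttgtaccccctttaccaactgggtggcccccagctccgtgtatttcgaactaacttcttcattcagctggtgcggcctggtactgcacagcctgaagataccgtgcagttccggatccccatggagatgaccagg

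Near copies of the family were looked for among pseudogene transcripts. Of the 78 genes, 24 had a pseudogene transcript with at least 90% identity over at least 50% of the coding sequence. They had 41 such copies, with 8 for Mrps36 alone. Copies on a single chromosome were left out and are not reported here, so the counts are minima. The share of other genes with such copies was not computed. Of the copies, 8 reached 1 TPM in all libraries of the RSEM-style and 6 of the kallisto-style tables. A copy of Mrps10 named AC154457.3 (97.9% identity) stood at 61.3 ± 5.70 and 36.0 ± 3.14 TPM. A copy of Mrpl48, Mrpl48-ps on chromosome 4, stood at 12.8 ± 1.02 and 8.67 ± 1.26 TPM, where Mrpl48 itself stood at 53.5 ± 2.71 and 49.8 ± 2.45 TPM. Values of Mrpl23, Mrps10 and Mrpl48 are uncertain to this extent. Mrpl48-ps differs from the 633 coding bases of Mrpl48 at 12 positions (98.1% identity). The 120-base window with the most differences, 7, is shown because these are the letters by which reads can be told apart. Capitals mark the differing bases:

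Mrpl48, coding bases 330 to 449: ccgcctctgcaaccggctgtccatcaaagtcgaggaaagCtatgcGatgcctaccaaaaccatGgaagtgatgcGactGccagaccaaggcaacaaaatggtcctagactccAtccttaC

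Mrpl48-ps, aligned bases: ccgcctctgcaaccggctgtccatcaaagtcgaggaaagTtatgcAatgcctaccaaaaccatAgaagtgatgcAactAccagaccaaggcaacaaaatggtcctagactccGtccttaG

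Reads on the opposite strand are a further limit, since it is not known if counting used the strand. Exons of 28 of the 78 genes overlap exons of a gene on the opposite strand, which was expressed for 23. Where the partner was the more abundant, the member's value is least certain: Mrpl47 (71.8 ± 1.61 TPM) overlaps Ndufb5 (390 TPM), Mrpl18 (108 ± 2.55 TPM) overlaps Tcp1 (385 TPM), and Mrpl36 (72.1 ± 2.38 TPM) overlaps Ndufs6 (290 TPM). Mrpl46 and Mrps11 overlap each other, at 55.4 ± 3.91 and 47.5 ± 2.83 TPM. For 8 of the 78 genes exons overlap a gene on the same strand. They are Mrpl3, Mrpl33, Mrpl51, Mrpl53, Mrps6, Mrps18c, Mrps24 and Mrps34. What this does to their levels and to the orders given above was not tested. Overlaps were not counted for other genes, so these counts describe the family alone.

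The 78 genes have 343 annotated transcripts, 170 typed protein-coding, 88 retained intron, 61 processed transcript and 24 nonsense-mediated decay. Transcripts not typed protein-coding held 22.1% ± 0.514 of the family's TPM in the RSEM-style and 22.8% ± 0.190 in the kallisto-style tables. Over all expressed protein-coding genes such transcripts held 10.5% ± 0.163 and 13.8% ± 0.150, and over the cytosolic ribosomal protein genes 11.5% ± 0.534 and 8.43% ± 0.407. These are pooled shares, and the typical gene of the family did not stand out. The median share of a gene was 2.98% and 3.93% over the 78 genes. Over all expressed protein-coding genes it was 2.94% and 5.04%, and over the cytosolic ones 0.701% and 1.24%. The leading transcript, the one with the largest share of a gene's TPM, was not typed protein-coding in 16 of 78 genes (20.5%). This was so in 6.77% of 11473 expressed protein-coding genes and in 12.2% of the cytosolic ones. In 5 of the 16 the leading transcript was typed retained intron, in 5 nonsense-mediated decay and in 6 processed transcript. In the kallisto-style tables the count was 15 of 78 (19.2%), all 15 among the same 16 genes.

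Mrpl57-202, a retained intron transcript of 519 nt, held 96.2% ± 0.571 of Mrpl57 in the RSEM-style and 93.2% ± 0.549 in the kallisto-style tables. Mrps26-201, also typed retained intron, held 91.5% ± 0.982 and 81.4% ± 1.93 of Mrps26. Mrps14-201, typed nonsense-mediated decay, held 90.5% ± 0.661 and 87.4% ± 0.667 of Mrps14. Both tables thus give these genes mostly to transcripts that carry no coding label. The labels are the annotation's and say nothing of the protein made. In all 16 genes the leading transcript was shorter than the principal transcript, with a median of 703.5 against 3574 nt. The principal transcript is the coding one tagged so in the annotation, or the most abundant of these in the RSEM-style tables. Exons of the leading transcript covered a median of 87.4% of the principal coding bases (35.1% to 100%), and in 1 of 16, Mrpl57, the leading transcript holds the whole coding sequence in an unbroken run.

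**Figure D5:**
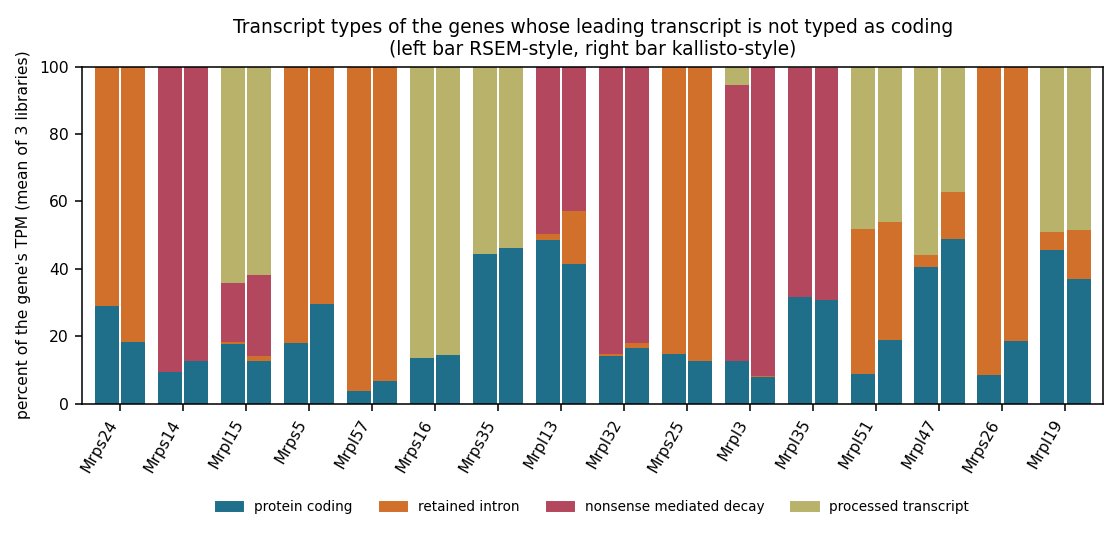
Share of a gene's TPM (mean of 3 libraries) by transcript type for the 16 genes whose leading transcript is not typed protein-coding, with the RSEM-style share on the left and the kallisto-style share on the right of each pair. In both the protein-coding part (bottom) stays below 50%, and it is smallest in Mrpl57.

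Of the 75 genes with more than 1 transcript, 68 (90.7%) had the same leading transcript in both quantifications, beside 87.8% of all expressed protein-coding genes. The 7 others were Mrpl17, Mrpl30, Mrpl47, Mrpl48, Mrps5, Mrps21 and Mrps33. At Mrpl47 the type changed too, from a processed transcript (55.9% ± 2.01, RSEM-style) to the protein-coding Mrpl47-201 (48.9% ± 2.12, kallisto-style). Of 217 transcripts tested, 40 (18.4%) differed by limma with a difference of at least 1, beside 19.2% of the 28549 transcripts tested in all. Of the 40, 21 (9.68%) were higher in the kallisto-style tables, beside 12.3% of all, and 19 (8.76%) lower, beside 6.89%. Without the minimum difference 146 of 217 passed, beside 63% of all.

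The largest difference was at Mrps21-202, with 63.8, 93.6 and 64.5 TPM in the RSEM-style tables and a mean of under 0.01 TPM in the kallisto-style ones (limma adjusted p = 0.00041). Mrps21-201 went from 73.6, 55.9 and 73.2 to 113, 100.4 and 103 TPM. The gene's reads were thus given to both transcripts in one quantification and almost wholly to Mrps21-201 in the other. Mrpl23-207 followed, at 37.7 ± 5.89 and 0.445 ± 0.439 TPM. Then came Mrpl58-207 (20.7 ± 6.49 and 3.73 ± 2.71 TPM), Mrpl20-204 (4.76 ± 0.880 and 0.281 ± 0.487 TPM) and Mrpl38-205 (5.36 ± 1.41 and 0.700 ± 0.460 TPM). In the other direction Mrps33-203, a retained intron transcript, was listed at 0 in the RSEM-style and at 40.1, 35.1 and 41.0 TPM in the kallisto-style tables (limma adjusted p = 0.00023). Mrpl55-203 and Mrpl45-202 were also listed at 0 in the RSEM-style tables and stood at 11.5 ± 2.33 and 7.14 ± 1.67 TPM in the kallisto-style ones. Mrpl21-203 went from 0.407 ± 0.704 to 15.2 ± 3.28 TPM and Mrps5-207 from 6.41 ± 10.7 to 32.7 ± 4.40 TPM. The 10.7 for Mrps5-207 comes from replicate 2, at 18.8 TPM, with 0.43 and 0 TPM in the other libraries.

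Many of the genes start back to back with another gene. For 18 of 78 (23.1%) the start of a protein-coding gene on the opposite strand, read away from the member, lay within 1000 bp, beside 10.8% of 11478 expressed protein-coding genes and 11.0% of the cytosolic family. These shares are a description, and no test was made. Of the 18 partners 17 were expressed, and the member was the higher of the pair in 15. All 78 genes lie above the median of expressed protein-coding genes, and these counts were not made for other such pairs. Mrps18c and Helq start 29 bp apart and measured 195, 202 and 235 against 14.6, 12.2 and 14.7 TPM. Mrpl57 and Ska3 start 49 bp apart, at 175 ± 7.68 and 26.4 ± 0.660 TPM. Mrps12 and Sars2, the mitochondrial seryl-tRNA synthetase gene, start 172 bp apart, at 88.2 ± 4.70 and 27.0 ± 0.900 TPM. The partner was the higher gene at Mrpl49, whose partner Fau encodes a cytosolic ribosomal protein (67.2 ± 4.25 against 1990 ± 21.5 TPM, 59 bp), at Mrpl32 with the proteasome gene Psma2 (102 ± 5.86 against 174 ± 6.55 TPM, 75 bp) and at Mrpl51 with the condensin gene Ncapd2 (73.4 ± 3.36 against 89.6 ± 5.79 TPM, 100 bp).

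Promoter windows of RefSeq (GRCm38.p6, which is mm10) were found for 69 of the 78 genes, 75 windows of 300 bases, from 250 before to 50 after a start. They were searched on both strands for letters linked in textbooks to factors of such genes. The letters CCGGAAG, the core bound by ETS factors such as GABPA (Gabpa at 67.1 ± 5.02 TPM), were in 26 of 75 windows (34.7%). They were in 8.86% of all 32851 windows, 18.4% of windows of expressed protein-coding genes and 35.6% of cytosolic ribosomal protein windows. AAGATGG, as bound by YY1 (Yy1 at 4.79 ± 0.667 TPM), was in 13 windows (17.3%), against 6.34%, 7.25% and 16.4%. GCGCATG, from the site of NRF1, was in 8 windows (10.7%), against 3.91%, 7.28% and 12.3%. The TATA box letters TATAAA were in 5 windows (6.67%), against 13.6%, 6.66% and 8.22%, and the E-box CACGTG was in 7 (9.33%), against 7.15%, 10.3% and 11.0%. Any of the ETS, YY1 or NRF1 letters were in 38 windows (50.7%), against 17.5%, 29.3% and 60.3%. A match is a description of letters and not a bound site. None of these letters overlaps another of the set in the windows below.

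The windows of the 4 most abundant genes and of 2 head-to-head genes are shown 5' to 3' on the strand of the gene. Capitals mark any of the 5 motifs on either strand:

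Mrpl42 promoter, chr10:95501900-95502199, minus strand: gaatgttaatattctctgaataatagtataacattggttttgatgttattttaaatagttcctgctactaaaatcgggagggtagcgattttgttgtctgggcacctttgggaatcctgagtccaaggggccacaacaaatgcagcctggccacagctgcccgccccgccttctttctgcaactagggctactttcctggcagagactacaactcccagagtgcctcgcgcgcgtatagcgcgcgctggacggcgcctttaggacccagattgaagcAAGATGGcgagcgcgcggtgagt

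Mrpl17 promoter, chr7:105811038-105811337, minus strand: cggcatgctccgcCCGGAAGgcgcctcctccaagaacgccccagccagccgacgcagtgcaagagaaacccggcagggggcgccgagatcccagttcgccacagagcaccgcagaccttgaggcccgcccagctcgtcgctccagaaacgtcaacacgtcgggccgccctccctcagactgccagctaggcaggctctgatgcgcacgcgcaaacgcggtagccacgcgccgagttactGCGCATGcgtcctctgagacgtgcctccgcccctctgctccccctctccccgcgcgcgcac

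Mrpl33 promoter, chr5:31613701-31614000, plus strand: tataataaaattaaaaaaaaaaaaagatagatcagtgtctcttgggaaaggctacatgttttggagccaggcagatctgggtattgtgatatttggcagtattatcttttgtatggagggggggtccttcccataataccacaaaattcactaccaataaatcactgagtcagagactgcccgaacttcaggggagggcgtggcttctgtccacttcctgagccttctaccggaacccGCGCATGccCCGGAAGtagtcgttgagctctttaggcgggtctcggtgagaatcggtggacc

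Mrps24 promoter, chr11:5707652-5707951, minus strand: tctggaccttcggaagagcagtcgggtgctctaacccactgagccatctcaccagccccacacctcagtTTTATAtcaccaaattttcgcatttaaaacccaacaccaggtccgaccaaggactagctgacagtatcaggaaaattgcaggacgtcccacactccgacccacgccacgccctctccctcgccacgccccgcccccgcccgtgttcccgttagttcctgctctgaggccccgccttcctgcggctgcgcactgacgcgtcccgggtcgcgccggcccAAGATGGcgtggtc

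Mrps12 promoter, chr7:28741772-28742071, minus strand: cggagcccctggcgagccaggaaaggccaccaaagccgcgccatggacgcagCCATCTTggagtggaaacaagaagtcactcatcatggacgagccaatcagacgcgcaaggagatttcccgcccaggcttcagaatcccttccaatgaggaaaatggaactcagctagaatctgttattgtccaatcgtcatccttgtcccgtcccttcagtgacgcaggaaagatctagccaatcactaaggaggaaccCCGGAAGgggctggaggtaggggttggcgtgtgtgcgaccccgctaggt

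Mrps18c promoter, chr5:100798509-100798808, plus strand: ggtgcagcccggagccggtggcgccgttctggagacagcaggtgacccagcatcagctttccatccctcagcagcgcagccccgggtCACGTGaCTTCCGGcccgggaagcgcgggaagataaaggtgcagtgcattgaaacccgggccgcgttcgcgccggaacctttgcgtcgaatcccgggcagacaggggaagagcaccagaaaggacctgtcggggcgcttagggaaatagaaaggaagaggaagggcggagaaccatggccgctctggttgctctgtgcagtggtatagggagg

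In the Mrpl42 window the YY1 letters begin 28 bases into the transcript, and in the Mrps24 window 37 bases in, both on the gene's strand. Mrps24 also holds the TATA letters on the other strand, from -181. The Mrpl17 window holds ETS letters from -237 and NRF1 letters from -11, and that of Mrpl33 NRF1 letters from -12 and ETS letters from -3, all on the gene's strand. In the window of Mrps12 ETS letters begin at base 2 of the transcript, and YY1 letters lie on the other strand from -198, beyond the start of Sars2. The Mrps18c window holds the E-box from -163 and ETS letters on the other strand from -156. Mrpl42 and Mrps24, at 555 ± 26.8 and 303 ± 22.5 TPM, hold the YY1 letters, while Mrpl17 and Mrpl33, at 421 ± 26.8 and 308 ± 24.2 TPM, do not.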

How the data were processed

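Total RNA-seq tables of 3 libraries, all of 1 group, were used. Per the notes deposited with the files, the authors made the RSEM-style gene and transcript tables from transcriptome alignments, and the kallisto-style transcript tables from reads and a transcript index, on mm10 with GENCODE M21. Which quantifiers, aligner, versions and strandedness they used is not given in the sources used here. As deposited, the expected counts (estimated counts) carry no normalization. TPM values, as the authors deposited them, are corrected for length and share 1 total in every library, which spike-ins enter. Transcript and gene lengths came from the same tables.

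Counts were rounded. The test of variable genes used edgeR 4.0.16 (limma 3.58.1, R 4.3.3) after filterByExpr, which all 78 genes passed, with TMM scaling and a quasi-likelihood fit of the intercept alone; the chi-square test used the same genes with 2 degrees of freedom. Quantifications were compared, paired by library, with limma on the difference in log2(TPM + 1), for features that reached 1 TPM in every library of either table; such differences understate the change of low features. P-values were adjusted by Benjamini-Hochberg over all features tested. Coding sequences were matched to pseudogene transcripts with blastn 2.17.0. Kallisto-style libraries held 17717726 to 19156106 counts. Rows named by tRNA numbers, with 0.000147% of the counts, were left out, as were 96 ERCC rows. Scripts were tested on simulated data.

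The members and lists were chosen with earlier results of these data known. The genes named with values are the 10 highest and 6 lowest, the 3 highest of each class, members called variable or different between quantifications, the 3 largest and 3 smallest CVs, the 5 called transcripts that differed most each way, members with different leading transcripts, Mrps12, Mrpl12, Mrps18a to c, Mrps30 and Mrps36, and the 2 highest and the lowest of each related list, except 1 gene that is not reported here and the cytosolic genes with other symbols, which were counted with their family. Genes named for counting noise, near copies, overlaps, transcript types or neighbours were chosen after their values were seen. Alternatives were other thresholds, a pseudocount of 0.1, other scalings, the kallisto-style values and leaving out each library.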

Additional observations from a re-analysis of the deposited data

How the results depend on the processing

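All 78 genes were expressed at a TPM minimum of 5 and of 10, in the kallisto-style tables and without any 1 library, and 0 of 78 were called variable under every alternative run. The share of TPM, 0.990%, was 1.04% over annotated genes only, 0.810% in the kallisto-style tables and 0.595% as a share of counts; without a replicate it was 0.983% to 1.00%. The large minus small subunit difference, 0.011, was 0.058 with the subunits of the known structure, -0.017 by CPM, -0.10 in the kallisto-style tables and -0.010 to 0.035 without a replicate, so its sign was not determined. The cytosolic minus mitochondrial difference, 3.83, was 2.72 by CPM and 3.73 in the kallisto-style tables. The spread among genes, 0.92, was 0.84 by CPM. The count beyond counting noise, 13, was 21 with kallisto-style counts and 0 to 13 without a replicate, the 0 being without replicate 1. The median ratio of replicate 1, -0.098, was 0.087 with ERCC scaling, -0.048 on TPM and -0.088 with kallisto-style counts. The 1 gene different between quantifications became 63 with no minimum difference and 0 when centred on the median of all genes, where Mrpl23 stood at -0.96. The 40 of 217 transcripts (beside 19.2% of all) became 24 of 153 at a TPM minimum of 5 (beside 18.6% of all). With no minimum difference they became 146 of 217, beside 63% of all. The cause of these changes was not tested, except that ERCC scaling by its construction shifts all genes alike. The 3 libraries form 1 group, so no groups could be paired; the quantifications were compared within libraries. Depth limits the low genes: Mrps6 had 157 counts per library on average.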
